A study of Mus musculus with 6 samples.

Results

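Apoc2, Vnn1, Lpo, Klb, Serpina3a and Arg2 are 6 of the 18193 genes that the platform annotation pairs with a probe set of 1 symbol. They were selected on their signal, much higher in the testis of MRL/MpJ mice, AKR/N mice or both than in that of C57BL/6 mice. All probe sets annotated with one of these symbols alone were taken, 9 in all, of 45037 on the array without controls. The values that chose the genes are their differences from C57BL/6, so these differences are given below as a description with no test. No fixed threshold was part of the choice.

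Testis RNA was hybridised to 6 oligonucleotide arrays, 2 for each of the inbred strains C57BL/6, MRL/MpJ-+/+ and AKR/N. The mice were 8 weeks old, with 2 per strain, and the labels name no treatment. MRL mice descend in part from AKR and carry a small share of C57BL/6 ancestry, and the +/+ line lacks the lpr mutation of Fas. Values are deposited intensities on a linear scale (called units here), and differences are of log2(intensity + 16). With a median probe set at 28.0 to 30.7 units, the added 16 understates the change of dim probe sets. One estimate of the spread served all 3 strains, and the number of arrays limits the precision.

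The 6 genes encode proteins of separate kinds, most of them better known from tissues other than the testis. Apolipoprotein C-II is the cofactor that lipoprotein lipase needs to release fatty acids from circulating lipoproteins. Vanin 1 (Vnn1) is a membrane-anchored enzyme that splits pantetheine into pantothenate, the precursor of coenzyme A, and cysteamine. Lactoperoxidase (Lpo) is a secreted heme peroxidase of milk, saliva and airway fluid. Beta-klotho (Klb) is a coreceptor that lets fibroblast growth factor receptors bind the hormones FGF15 and FGF21. Serpina3a belongs to a mouse cluster of secreted serine protease inhibitors. Arginase 2 (Arg2) is the mitochondrial enzyme that turns arginine into ornithine and urea.

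RefSeq promoter entries (build GRCm38.p6, from C57BL/6J) matched 4 of the 6 genes, those of Apoc2, Lpo, Klb and Serpina3a. That reference is of the strain in which the signal was lowest, and the AKR/N and MRL/MpJ sequences were not analysed here. The 250 bases before the start are shown for Apoc2 and Lpo, which had the lowest ranks on the C57BL/6 arrays, and for Serpina3a, which had the highest. They lie at chr7:19677942-19678191 (minus strand), chr11:87826115-87826364 (minus strand) and chr12:104112474-104112723 (plus strand). They are written 5′ to 3′ along the gene, with capitals for matches on either strand to any of 4 motifs. TATAAA is the core of the TATA box, and the core hexamer of nuclear receptor sites is AGGTCA. The motif bound by NF-Y was searched as CCAAT, and the GC box as GGGCGG.
Apoc2: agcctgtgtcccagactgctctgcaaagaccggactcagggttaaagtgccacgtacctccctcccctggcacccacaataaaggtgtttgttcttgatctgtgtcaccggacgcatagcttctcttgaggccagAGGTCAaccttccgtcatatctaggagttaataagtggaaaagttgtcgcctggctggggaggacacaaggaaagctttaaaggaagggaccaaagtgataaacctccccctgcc
Lpo: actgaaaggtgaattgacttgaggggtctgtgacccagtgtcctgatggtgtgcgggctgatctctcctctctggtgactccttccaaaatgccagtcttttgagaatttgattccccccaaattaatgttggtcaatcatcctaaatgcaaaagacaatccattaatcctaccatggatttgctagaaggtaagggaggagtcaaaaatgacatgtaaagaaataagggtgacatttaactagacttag
Serpina3a: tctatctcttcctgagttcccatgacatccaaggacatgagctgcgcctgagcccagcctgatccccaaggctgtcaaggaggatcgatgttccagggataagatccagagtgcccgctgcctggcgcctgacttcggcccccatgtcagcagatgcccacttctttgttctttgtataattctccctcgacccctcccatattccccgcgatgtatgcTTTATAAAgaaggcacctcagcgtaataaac
Of the 4 promoters, 1 held AGGTCA (Apoc2) and 1 held TATAAA, in overlapping matches on both strands (Serpina3a). Among all 32851 promoters of this length, 14.0% held the first and 12.4% the second. CCAAT and GGGCGG, present in 33.8% and 32.7% of all promoters, were not found in the 4, and the window of Klb held none of these letters. A match is a description of the letters only. Vnn1 and Arg2 are named only.

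The tissue carried its defining transcripts on every array. The 10 germ cell markers, among them protamine 1 (Prm1, 7370 to 8906 units) and the transition protein Tnp1 (7456 to 8576 units), summed to 50782 to 60788 units per array. The Leydig cell list moved with the C57BL/6 contrasts: 4 of its 5 tested markers were higher in MRL/MpJ and 4 in AKR/N. Of all genes, 6.06% and 6.33% were called higher. The exceptions were Cyp11a1 in MRL/MpJ (-0.07) and Hsd3b1 in AKR/N (-0.04). Cyp17a1 and Hsd17b3 kept their calls in both strains in all 16 alternatives. Star was called in 11 of 16 in MRL/MpJ and 13 in AKR/N. Averaged over its probe sets, Cyp11a1 differed by 0.12 in AKR/N (limma adjusted p = 0.638). The summed level of the list, to which Cyp17a1 gave most, was 3321 to 3417 units in C57BL/6, 5414 to 5938 in AKR/N and 5478 to 5676 in MRL/MpJ. The part of this list in the signal of the 6 genes was not tested. In whole testis, fewer cells of a type and less RNA per cell cannot be told apart.

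One array stood apart for another tissue. On AKR/N replicate 1 the epididymal genes Gpx5, Lcn5 and Adam7 stood at 393.1, 118 and 63.4 units, while on the other 5 arrays they reached at most 42.8, 14.9 and 13.1 units. The 3 tested genes of the epididymis list summed to 510.2 units there, to 73.7 on AKR/N replicate 2 and to 56.9 to 155 in the other strains. Of these 3, Rnase10 was called lower than C57BL/6 in both strains. Each of the 6 genes, by its representative (brightest tested) probe set, was brighter on AKR/N replicate 2 than on replicate 1. The gap was small for Vnn1 (419 against 415.8 units), and its other probe set read 177 on replicate 2 and 178 on replicate 1. The part of epididymal tissue in the signal of the 6 genes was not tested. Of the liver markers, Alb read 2.41 to 21.6 units and Ahsg 1.49 to 7.02 units over all arrays, whereas Apoh read 437 to 609. Fgg (means of 4.37, 12.8 and 23.3 units in C57BL/6, AKR/N and MRL/MpJ), Cps1 (11.8, 15.8 and 30.7) and Tat (7.09, 14.4 and 14.0) were higher in both strains with no overlap. Of all tested probe sets, 27.5% were higher without overlap in MRL/MpJ and 26.2% in AKR/N. The part of these markers in the signal of the 6 genes was not tested. The 4 tested liver markers summed to 511 to 520 units in C57BL/6, 624 to 657 in AKR/N and 492 to 516 in MRL/MpJ. Of these 4, 0 were called by limma in either strain against C57BL/6 (at most 2 at an unadjusted p under 0.05). Granulocyte markers (S100a8 at most 9.87 units) and the 8 tested macrophage markers had no call against C57BL/6 either, with at most 1 and 2 at an unadjusted p under 0.05. Of 9 tested Sertoli cell markers 3 were higher in AKR/N, and of 3 tested adipose markers 1 was higher in each strain.

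The 6 genes did not share one level in C57BL/6. The deposited values carry no detection calls, so each was set against its own array, where the 40th percentile lay between 17.8 and 20.8 units. Both C57BL/6 arrays were under that mark for the representative probe sets of 3 genes, Apoc2, Lpo and Arg2. Apoc2 and Lpo lay lowest, at no more than the 21.0th and 15.7th percentile, while Arg2 was just under the mark, at its 33.9th to 39.4th percentile. By its second probe set Vnn1 was lower still than Arg2 in rank (22.1st to 23.2nd percentile). The label of near absence therefore describes Apoc2 and Lpo better than the others. The brighter probe sets of Vnn1 and Klb lay close to the middle of the array, and Serpina3a was plainly above background in C57BL/6, at its 80.4th to 83.1st percentile. All 6 genes were above the 60th percentile on all 4 arrays of the other strains.

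**Figure D1:**
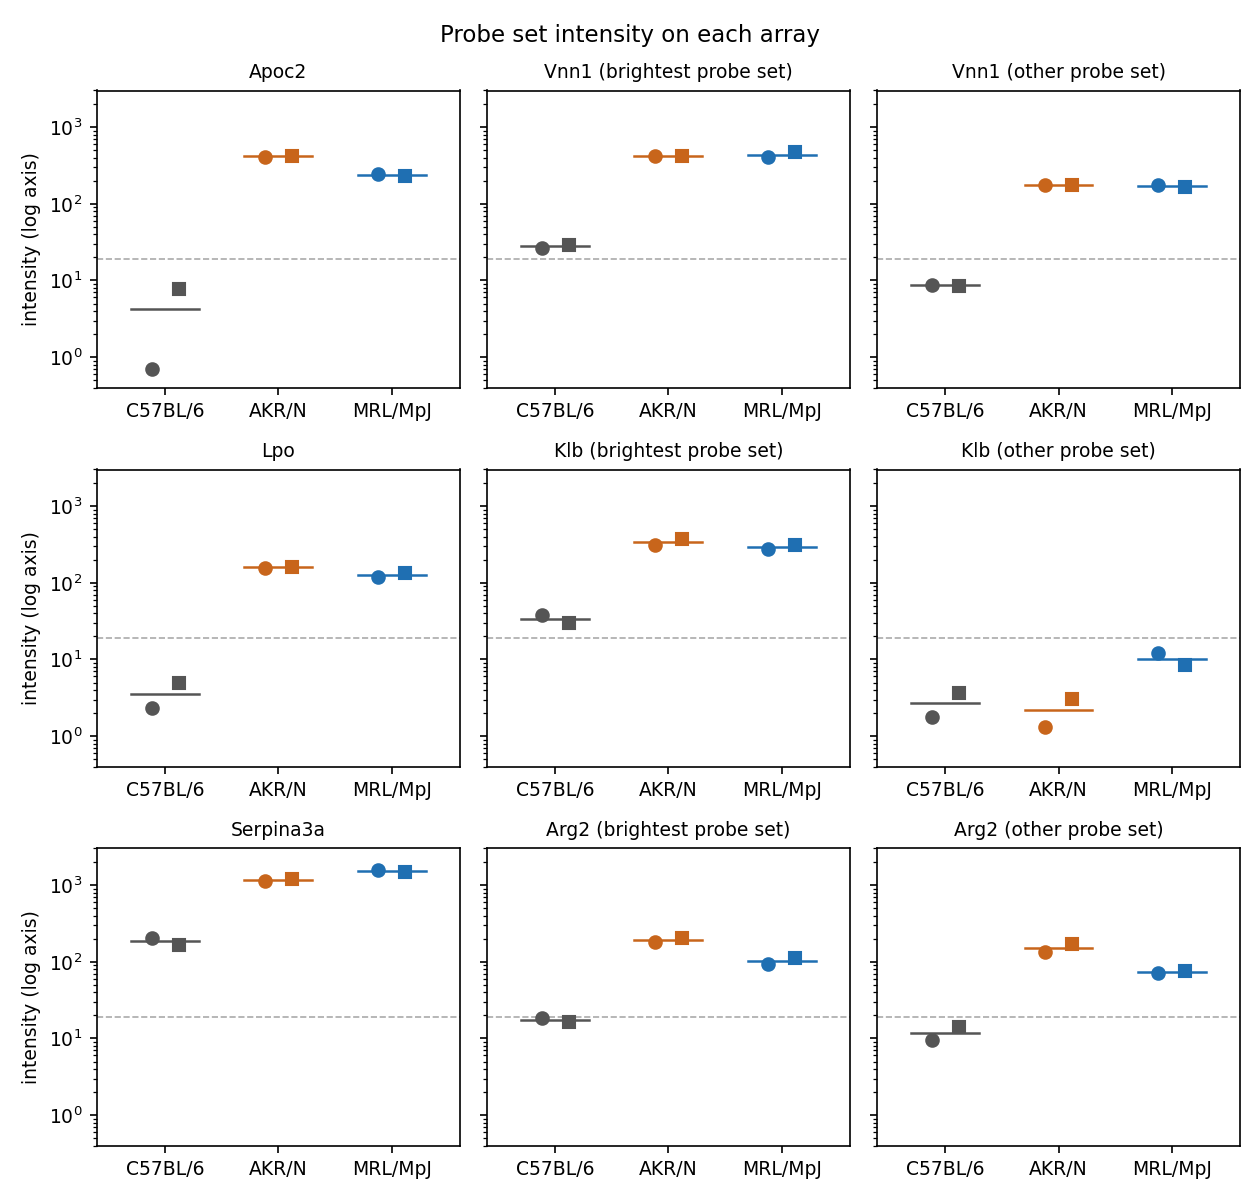
Intensity (log axis) of the 9 probe sets on each array; circles are replicate 1, squares replicate 2, bars the strain means, and the dashed line the mean 40th percentile of the arrays. In 8 panels the AKR/N and MRL/MpJ arrays lie far above both C57BL/6 arrays, and the dim second Klb probe set, under the line on every array, does not show this.

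Apoc2, the lipase cofactor, was at the bottom of the C57BL/6 arrays and well above the middle of the others. Its probe set, 1418069_at, read 0.705 and 7.86 units in C57BL/6, 411 and 425 in AKR/N, and 247 and 229.9 in MRL/MpJ. The 3 strains did not overlap, and AKR/N was the highest. The C57BL/6 values lay between the 1.38th and 21.0th percentile of their arrays. Measured against the 40th percentile of the C57BL/6 arrays rather than against these dim values, the AKR/N mean was 20.9 times and the MRL/MpJ mean 11.9 times as high. The log2 difference from C57BL/6 was 4.44 in AKR/N and 3.67 in MRL/MpJ. With a pseudocount of 1 these became 6.75 and 5.94, and with 64 they became 2.82 and 2.15.

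Vnn1, the pantetheinase, was measured by a pair of probe sets. The brighter one, 1418486_at, read 26.4 and 29.1 units in C57BL/6, 415.8 and 419 in AKR/N, and 401.7 and 473.7 in MRL/MpJ. The other, 1447845_s_at, read 8.75 and 8.51, then 178 and 177, then 176 and 167 units. Both placed AKR/N and MRL/MpJ close together and far above C57BL/6. Their log2 differences from C57BL/6 were 3.37 and 2.93 in MRL/MpJ and 3.31 and 2.97 in AKR/N.

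Lpo, the peroxidase (1448998_at), read 2.30 and 4.88 units in C57BL/6, 155 and 162 in AKR/N, and 120.4 and 136 in MRL/MpJ. The groups did not overlap, with AKR/N highest and C57BL/6 within the lowest 15.7% of its arrays. The log2 difference from C57BL/6 was 3.16 in AKR/N and 2.88 in MRL/MpJ. With a pseudocount of 1 it was 5.18 and 4.87, and with 64 it was 1.72 and 1.51. Against the 40th percentile of the C57BL/6 arrays, the means were 7.93 and 6.41 times as high.

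Klb, the FGF coreceptor, gave probe sets that differed. The brighter one, 1449568_at, read 37.8 and 29.5 units in C57BL/6, 313.6 and 372 in AKR/N, and 273 and 315 in MRL/MpJ, with both strains well above C57BL/6 and overlapping each other. Its log2 difference from C57BL/6 was 2.85 in AKR/N and 2.64 in MRL/MpJ. The other probe set, 1426075_at, was too dim to be tested. It read 1.78 and 3.64 units in C57BL/6, 1.33 and 3.03 in AKR/N, and 11.99 and 8.42 in MRL/MpJ, so it showed no gap between C57BL/6 and AKR/N. As the mean of both probe sets the difference was 1.41 in AKR/N and 1.56 in MRL/MpJ.

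Serpina3a, the protease inhibitor, was the member with clear signal in every strain. Its probe set, 1421556_at, read 207 and 165 units in C57BL/6, 1132 and 1211 in AKR/N, and 1582 and 1467 in MRL/MpJ, with no overlap and MRL/MpJ highest. The means were 6.29 times as high in AKR/N and 8.19 times as high in MRL/MpJ as in C57BL/6. With all strains bright, these differences depended little on the pseudocount (2.56 and 2.94 on the log2 scale with 16, 2.31 and 2.67 with 64). The mouse Serpina3 genes are close copies, and whether the probe set also reads a relative was not tested.

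Arg2, the mitochondrial arginase, was highest in AKR/N on both of its probe sets. The brighter one, 1418847_at, read 18.7 and 16.2 units in C57BL/6, 180 and 205 in AKR/N, and 92.6 and 111 in MRL/MpJ. The other, 1438841_s_at, read 9.51 and 14.0, then 132 and 171, then 70.4 and 76.2 units. On each probe set the 3 strains did not overlap, and MRL/MpJ lay between the others. The log2 difference from C57BL/6 was 2.64 in AKR/N and 1.81 in MRL/MpJ. With a pseudocount of 1 it was 3.39 and 2.48, and with 64 it was 1.65 and 1.02.

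All 6 representative probe sets had non-overlapping arrays in both contrasts with C57BL/6. Of all 29692 tested probe sets, 27.5% were higher without overlap in MRL/MpJ and 26.2% in AKR/N. Since these contrasts chose the members, nothing is read from that count. Both contrasts share the C57BL/6 arrays.

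A pattern of dim C57BL/6 arrays and bright others was uncommon among all probe sets. By their representative probe sets 3 of the 6 members met the pattern, and the second probe sets of Vnn1 and Arg2 met it too. The members were chosen on differences of this kind, so nothing is read from their place in it. Only 18 of the tested probe sets (0.0606%) lay under the 40th percentile on both C57BL/6 arrays and above the 60th on the other 4, against 32 (0.108%) with the opposite pattern. By representative probe sets these were Apoc2, Lpo and Arg2 and 5 other genes, named after their values were seen. They were Cyp2c55, a cytochrome P450, Hal, which starts histidine breakdown, Grm7, a glutamate receptor, Lgi2 and Ociad2. Hal read 3.02 and 11.9 units in C57BL/6, 75.5 and 98.8 in AKR/N, and 100.5 and 91.9 in MRL/MpJ.

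MRL/MpJ and AKR/N differed in the level of Apoc2. This contrast did not choose Apoc2, Vnn1, Lpo or Klb, whose rises were large in both strains, and 6.91% of all tested probe sets were called in it. Apoc2 was lower in MRL/MpJ by a log2 difference of -0.77 (SE 0.163, 95% interval -1.13 to -0.41, limma adjusted p = 0.0181), with both MRL/MpJ arrays below both AKR/N arrays, as for 23.7% of all tested probe sets. Of the 4 genes, 1 was thus called. The call ended without any 1 of the 4 arrays compared. Its adjusted p by limma was then 0.104 or 0.143 (AKR/N replicate 1 or 2 left out) and 0.0801 or 0.126 (MRL/MpJ replicate 1 or 2 left out). It also ended with a pseudocount of 1 (0.486) and without the variance trend (0.134).

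For the other 3, no difference between the strains was called, and the intervals show what these arrays allow. The MRL/MpJ minus AKR/N difference was 0.06 for Vnn1 (95% interval -0.19 to 0.31, limma adjusted p = 0.838). It was -0.28 for Lpo (-0.62 to 0.06, limma adjusted p = 0.363) although the arrays did not overlap. For Klb it was -0.21 (-0.51 to 0.09, limma adjusted p = 0.44). The choice of Serpina3a and Arg2 may have rested on 1 strain, so their differences of 0.38 and -0.82 are a description only. The second Arg2 probe set gave -0.90.

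**Figure D2:**
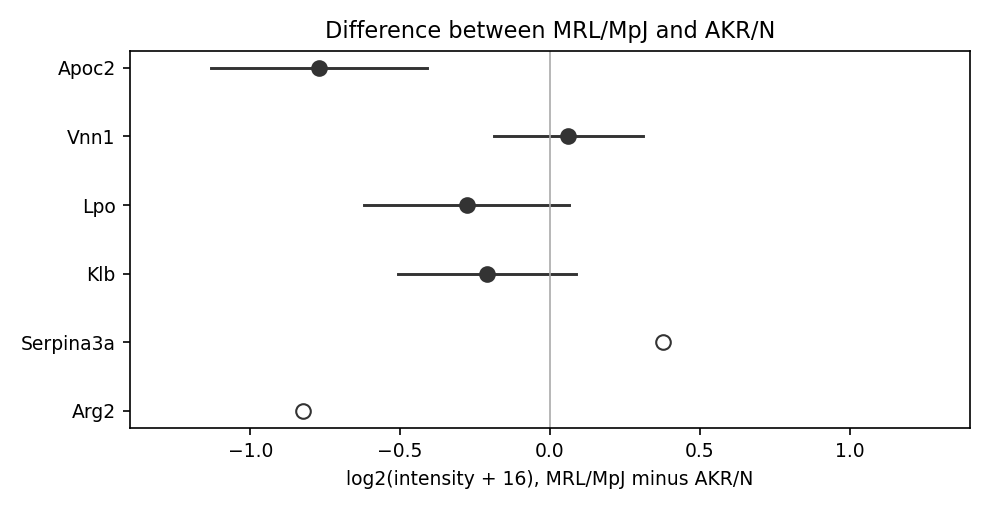
Difference in log2(intensity + 16) between MRL/MpJ and AKR/N (x axis) for the representative probe set of each gene, 2 arrays per strain. Filled points carry a 95% interval from the fit; open points (Serpina3a, Arg2) are described without a test. Of the 4 intervals only that of Apoc2, from -1.13 to -0.41, leaves out 0.

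Among the 24 nearest tested neighbours of the 6 genes (2 on each side in RefSeq order), several apolipoprotein and serpin genes were higher than in C57BL/6. In MRL/MpJ against C57BL/6, 5 neighbours were higher and 1 was lower, where 6.06% and 6.08% of all 14477 genes were called. In AKR/N against C57BL/6, 6 were higher and 1 lower, against 6.33% and 5.45%. The 5 called higher in both were Apoc1 and Apoe on one side of Apoc2, and Serpina1c, Serpina5 and Serpina3n around Serpina3a. In RefSeq order 2 genes lay between Apoc2 and Apoc1, and 3 between Apoc2 and Apoe. Serpina5 was directly beside Serpina3a, with 8 genes between Serpina3a and Serpina1c and 15 between it and Serpina3n. The 5 genes did not enter the choice of members, but both contrasts share the C57BL/6 arrays.

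Apoe, the apolipoprotein that remnant receptors bind, read 362 and 352 units in C57BL/6, 483 and 529.9 in AKR/N, and 699 and 644 in MRL/MpJ. It was higher in MRL/MpJ by 0.88 (limma adjusted p = 9.82e-05) and in AKR/N by 0.48 (0.00497). Apoc1, which restrains lipoprotein uptake, read 141 and 96.3, then 194 and 228, then 423 and 326 units, a rise of 1.54 (limma adjusted p = 0.000232) and 0.77 (0.016). Both were highest in MRL/MpJ, whereas Apoc2 was highest in AKR/N. MRL/MpJ exceeded AKR/N by 0.40 for Apoe and 0.77 for Apoc1 (limma adjusted p = 0.02 and 0.0214).

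Not every neighbour in that cluster followed. Apoc4, the next apolipoprotein gene, was dim on all arrays (1.95 to 4.71 units) and not tested. Clptm1, on the other side, differed by 0.17 in MRL/MpJ and -0.15 in AKR/N from C57BL/6, neither called. It was higher in MRL/MpJ than in AKR/N by 0.32 (limma adjusted p = 0.0313), a call that ended without any 1 of those 4 arrays (0.123 to 0.186). Averaged over its probe sets, the difference was 0.03 (limma adjusted p = 0.92). The rises of Apoe and Apoc1 in MRL/MpJ over C57BL/6 kept their calls whichever array was left out. In AKR/N, that of Apoe ended without AKR/N replicate 2 (adjusted p by limma 0.0615) and that of Apoc1 without C57BL/6 replicate 2 (0.118) or AKR/N replicate 2 (0.13). For MRL/MpJ minus AKR/N, Apoe had 0.153 or 0.0617 with AKR/N replicate 1 or 2 left out, and 0.15 or 0.0615 with MRL/MpJ replicate 1 or 2 left out. Apoc1 had 0.146, 0.0707 and 0.164 without AKR/N replicate 1, AKR/N replicate 2 and MRL/MpJ replicate 1.

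Serpina5, the protein C inhibitor, which male mice need for fertility, is the gene next to Serpina3a. It read 333 and 326 units in C57BL/6, 816 and 902 in AKR/N, and 1181 and 1113 in MRL/MpJ. It rose by 1.75 in MRL/MpJ (limma adjusted p = 4.26e-07) and 1.34 in AKR/N (2.74e-06). Its order of strains was that of Serpina3a, with MRL/MpJ above AKR/N by 0.41 (limma adjusted p = 0.0116). That last call ended without AKR/N replicate 1 (adjusted p by limma 0.111), MRL/MpJ replicate 1 (0.0977) or MRL/MpJ replicate 2 (0.0511).

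Serpina3n, an inhibitor induced in inflammation, was dim in C57BL/6 at 7.40 and 4.18 units and read 43.9 and 40.6 in AKR/N and 59.3 and 48.1 in MRL/MpJ. It rose by 1.68 and 1.42 in MRL/MpJ and AKR/N (limma adjusted p = 0.000697 and 0.00199), and was called in all 16 alternatives. With C57BL/6 so dim, the size ran from 0.75 to 3.04 in MRL/MpJ and from 0.61 to 2.71 in AKR/N over those alternatives. Serpina1c, of the alpha-1 antitrypsin family, read 15.9 and 44.0, then 115 and 105.7, then 94.9 and 83.7 units (rises of 1.27 in MRL/MpJ and 1.53 in AKR/N; limma adjusted p = 0.00851 and 0.00297). Its call in MRL/MpJ ended without MRL/MpJ replicate 1 (0.0662). Serpina1 genes are close copies of each other and may share probes. Gsc, at the edge of the cluster, differed by -0.21 and -0.26 and was not called.

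Around the other 4 genes, 1 neighbour (Stx7) was called higher than C57BL/6, in AKR/N, and 2 were called lower (Mpo and Rfc1), each in 1 strain. Vnn3, the pantetheinase gene beside Vnn1, read 40.2 and 20.6 units in C57BL/6, 37.1 and 38.5 in AKR/N and 22.7 and 20.9 in MRL/MpJ, with no call. Stx7, on the other side of Vnn1 with 19 genes between, rose in AKR/N by 0.45 (limma adjusted p = 0.0212). In MRL/MpJ it was 0.37 higher without overlap, which was not called (limma adjusted p = 0.0501, but under 0.05 in 5 of 16 alternatives). The call in AKR/N had 0.114, 0.0941 and 0.131 with C57BL/6 replicate 2, AKR/N replicate 1 and AKR/N replicate 2 left out in turn. Mpo, the myeloid peroxidase gene beside Lpo, was lower where Lpo was higher. It read 78.2 and 48.8 units in C57BL/6, 29.7 and 35.3 in AKR/N and 21.3 and 35.1 in MRL/MpJ, lower in MRL/MpJ by a difference of -0.84 (limma adjusted p = 0.049). It lost that call in 13 of 16 alternatives, among them each with 1 array left out other than C57BL/6 replicate 2 (0.0587 to 0.256). Rfc1, beside Klb, was lower in AKR/N (-0.38, limma adjusted p = 0.0158, with 0.101 averaged over its probe sets, and 0.0988, 0.113 and 0.0669 with C57BL/6 replicate 2, AKR/N replicate 1 and AKR/N replicate 2 left out in turn). Rfc1 was also higher in MRL/MpJ than in AKR/N (0.34, limma adjusted p = 0.0375, and 0.115 to 0.2 without any 1 of those 4 arrays). The 4 neighbours of Arg2 had no call.

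**Figure D3:**
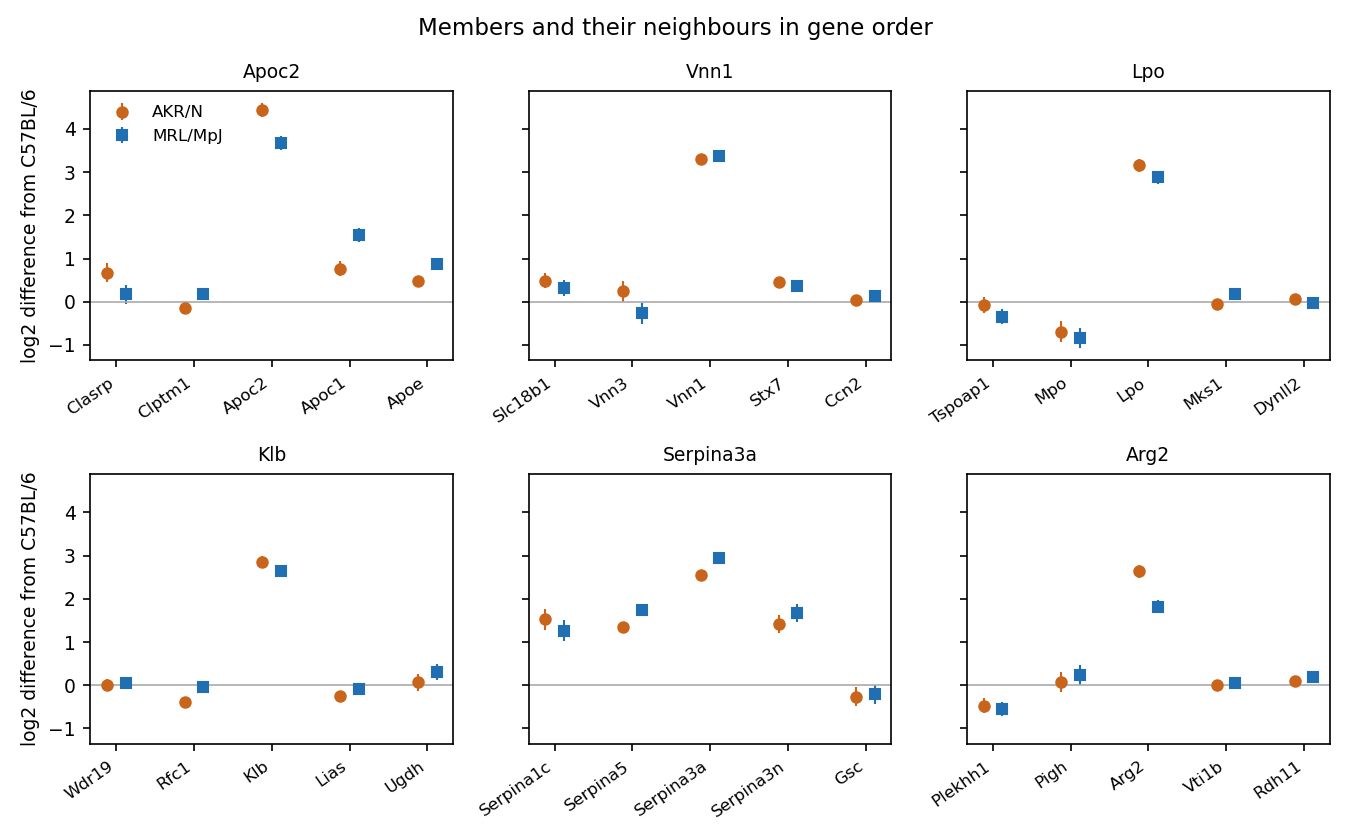
Log2 difference from C57BL/6 (y axis, error bars are standard errors of the fit) of each gene and its 2 nearest tested neighbours on either side in RefSeq order, for AKR/N (circles) and MRL/MpJ (squares), 2 arrays per strain. Beside Apoc2 and Serpina3a several neighbours lie above 0; beside Vnn1, Lpo, Klb and Arg2 the member lies far above each neighbour.

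The genes of the pathways around the 6 members were described with 7 lists, of which 95 genes were tested. The lists were chosen with earlier results of these data known, so their counts are a description only. In MRL/MpJ against C57BL/6, 16 were higher and 3 lower, where 6.06% and 6.08% of all genes were called. The median difference was 0.11 against 0.01 over all genes. In AKR/N against C57BL/6, 12 were higher and 1 lower (6.33% and 5.45% of all genes), with medians of 0.09 and 0.01. Apoc1, Apoe, Serpina1c, Serpina5 and Serpina3n, the neighbours called higher in both strains, are counted here again. Between MRL/MpJ and AKR/N, 6 were higher and 2 lower (medians 0.04 and 0.01), where 3.65% and 5.05% of all genes were called. The total for MRL/MpJ against C57BL/6 was 9 without MRL/MpJ replicate 1, and that for AKR/N was 8 without AKR/N replicate 2. With MRL/MpJ set against AKR/N it was 2 whichever of their 4 arrays was left out.

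**Figure D4:**
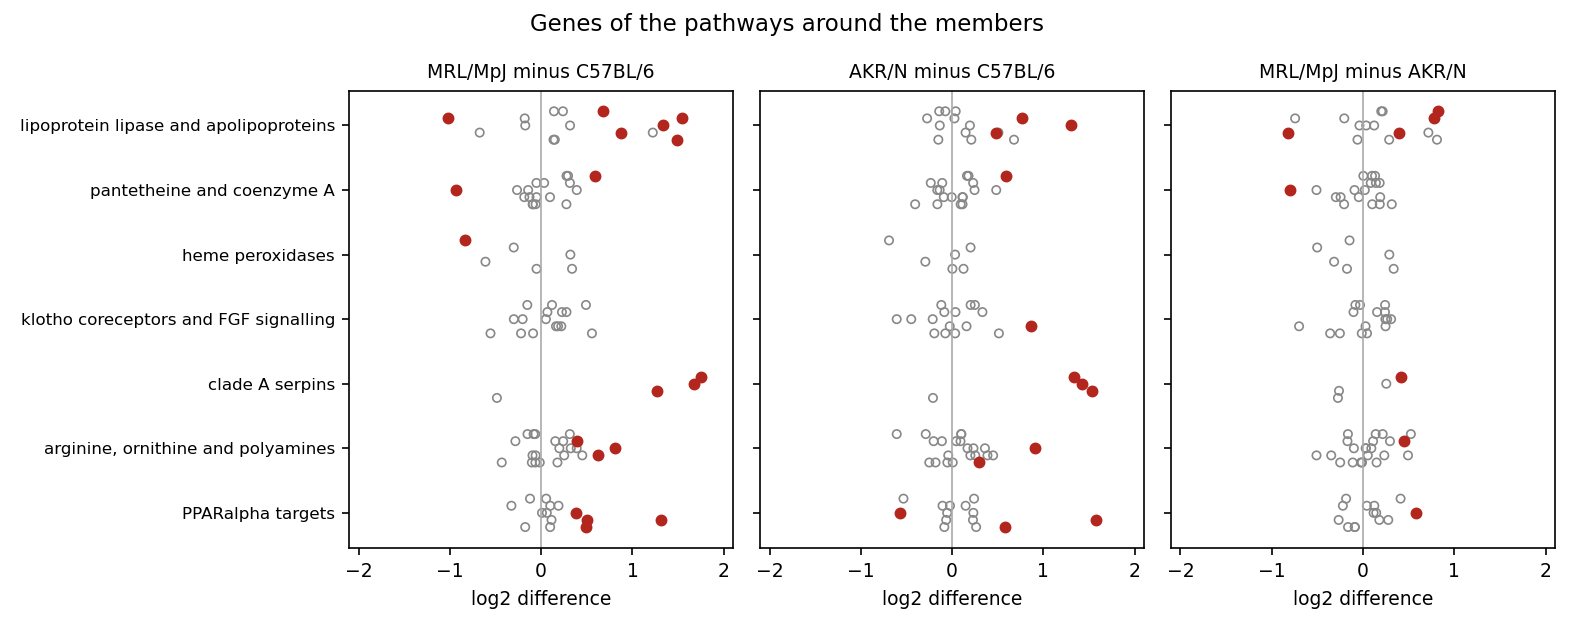
Log2 differences (x axis) of the tested genes of each pathway list, members left out, in the 3 comparisons of strains; filled points passed limma's adjusted p of 0.05 and open points did not. Filled points lie mostly to the right of 0 in both comparisons with C57BL/6, with 16 of 19 in MRL/MpJ and 12 of 13 in AKR/N.

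Of 15 lipoprotein lipase and apolipoprotein genes, 5 were higher and 1 lower in MRL/MpJ than in C57BL/6 (median 0.24), and 3 were higher in AKR/N (median 0.15). Beside Apoe and Apoc1, these included Cd36, a fatty acid transporter, in both strains. It read 112 and 77.0 units in C57BL/6, 255 and 251.5 in AKR/N, and 259.7 and 259.8 in MRL/MpJ (1.34 and 1.30 in MRL/MpJ and AKR/N; limma adjusted p = 0.000184 and 0.000219). Lipg, endothelial lipase, was called higher in MRL/MpJ alone by its representative probe set. The difference was 0.68 over C57BL/6 and 0.82 over AKR/N (limma adjusted p = 0.00575 and 0.00297). The first of these was 0.0625 without MRL/MpJ replicate 2. Averaged over its probe sets, Lipg in MRL/MpJ differed from AKR/N by -0.07. It was then also called higher in AKR/N than in C57BL/6 (0.62, limma adjusted p = 0.0318). Outside the rule for named genes, Apod was higher in MRL/MpJ (1.49) and Gpihbp1, which carries lipoprotein lipase in capillaries, lower (-1.02; limma adjusted p = 0.00595 and 0.0237). That of Apod ended without MRL/MpJ replicate 1 (0.081) and averaged over its probe sets (0.75, limma adjusted p = 0.114), and that of Gpihbp1 without any 1 array of the pair of strains (0.0664 to 0.111).

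The enzyme that apolipoprotein C-II activates had no called rise over C57BL/6. Lpl read 48.6 and 33.3 units in C57BL/6, 45.0 and 48.1 in AKR/N, and 22.4 and 16.6 in MRL/MpJ. It was lower in MRL/MpJ than in AKR/N (-0.82, limma adjusted p = 0.0446) and differed from C57BL/6 by -0.67 and 0.15 in MRL/MpJ and AKR/N, neither called (limma adjusted p = 0.0741 and 0.739). The call ended without any 1 of the 4 arrays, at 0.167, 0.235, 0.0953 and 0.214 without AKR/N replicates 1 and 2 and MRL/MpJ replicates 1 and 2. It also ended after quantile normalization (0.0556) and median centring (0.0531), and averaged over its probe sets (0.0788).

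Of 18 genes of pantetheine and coenzyme A metabolism, 1 was higher and 1 lower in MRL/MpJ and 1 was higher in AKR/N. Pank1, a pantothenate kinase that starts coenzyme A synthesis, rose in both strains. It read 188 and 224 units in C57BL/6, 318 and 316 in AKR/N, and 319 and 317 in MRL/MpJ (0.59 in each; limma adjusted p = 0.00448 in AKR/N and 0.00431 in MRL/MpJ). Averaged over its probe sets, the difference in AKR/N was 0.27 (limma adjusted p = 0.145). Without the variance trend neither call held (0.062 and 0.0604). Nudt19, a peroxisomal coenzyme A hydrolase, was lower in MRL/MpJ than in C57BL/6 (-0.94, limma adjusted p = 0.00475) and AKR/N (-0.80, 0.0156). The latter was 0.0754, 0.121 and 0.115 without AKR/N replicate 1, AKR/N replicate 2 and MRL/MpJ replicate 2. Averaged over its probe sets, neither call held, at -0.55 (0.115) and -0.42 (0.267).

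PPARalpha is a nuclear receptor for fatty acids that is known to drive Vnn1 in liver. A list of its targets, with Ppara itself counted among them, held 14 tested genes. Of these, 4 were higher in MRL/MpJ and 2 higher and 1 lower in AKR/N. The medians were 0.10 and 0.06. Ppara itself was among those that rose in both. It read 21.4 and 7.96 units in C57BL/6, 66.5 and 80.6 in AKR/N, and 56.5 and 59.9 in MRL/MpJ, with no overlap between C57BL/6 and the others. The rise was 1.31 in MRL/MpJ and 1.58 in AKR/N (limma adjusted p = 0.00443 and 0.00146), and was called in all 16 alternatives. Since C57BL/6 was dim, the size depends on the pseudocount, from 0.64 with 64 to 2.06 with 1 in MRL/MpJ.

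Cpt1a, which admits fatty acids to mitochondria, rose by 0.49 in MRL/MpJ and 0.58 in AKR/N (limma adjusted p = 0.00995 and 0.00395). The former was 0.0611 without C57BL/6 replicate 2 and 0.083 without MRL/MpJ replicate 1. Acadl, an enzyme of fatty acid oxidation, rose in MRL/MpJ by 0.50 (limma adjusted p = 0.009, and 0.086 without MRL/MpJ replicate 1). Averaged over its probe sets it differed by 0.23 (limma adjusted p = 0.366). The carnitine carrier Slc25a20 was the gene lower in AKR/N (-0.57, limma adjusted p = 0.0304). That call ended without C57BL/6 replicate 2 (0.178), AKR/N replicate 1 (0.0652) or AKR/N replicate 2 (0.197), and averaged over its probe sets (-0.32, limma adjusted p = 0.148). Acadm, of the same oxidation pathway, was the remaining one higher in MRL/MpJ (0.38, limma adjusted p = 0.0441, called in 6 of 16 alternatives and in none with 1 of the 6 arrays left out, at 0.0594 to 0.261).

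Of 16 genes of klotho coreceptors and FGF signalling, the partners of Klb, limma called 0 in MRL/MpJ (2 at an unadjusted p under 0.05) and 1 in AKR/N. Kl, the related coreceptor, read 17.3 and 22.3 units in C57BL/6, 16.2 and 19.8 in AKR/N, and 15.3 and 20.1 in MRL/MpJ. Fgfr1 and Fgfr4, the receptors Klb pairs with, lay at 28.2 to 42.6 and 22.8 to 41.5 units over all arrays, and the strains overlapped for both, with no call. Dusp6, a phosphatase induced by this signalling, rose in AKR/N by 0.86 (limma adjusted p = 0.0292, and 0.164, 0.201 and 0.0905 with C57BL/6 replicate 2, AKR/N replicate 1 and AKR/N replicate 2 left out in turn).

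The heme peroxidase list also held genes of related oxidases, such as Cybb, Cyba and Duoxa1. Of its 6 tested genes, only Mpo was called, as given above. Epx, the eosinophil peroxidase, was dim (1.22 to 16.2 units) and not tested. Of 12 clade A serpins with a probe set, other than Serpina3a, only 4 were bright enough to be tested. The 3 neighbours of Serpina3a rose in both strains, and Serpina10 was not called. Serpina3n was under the 40th percentile on both C57BL/6 arrays, so it passed the filter only through the strains where it was higher.

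Of 22 tested genes of arginine, ornithine and polyamine metabolism, 3 were higher in MRL/MpJ and 2 in AKR/N, with medians of 0.17 and 0.10. Arg1, the cytosolic liver arginase, was dim on all arrays (0.987 to 6.23 units), as was the nitric oxide synthase Nos2 (1.46 to 2.41 units). Aldh4a1, which oxidises a product of ornithine and proline in mitochondria, rose in both strains. It read 47.9 and 39.3 units in C57BL/6, 100.7 and 91.3 in AKR/N, and 94.2 and 82.9 in MRL/MpJ (0.91 in AKR/N and 0.81 in MRL/MpJ; limma adjusted p = 0.00343 and 0.00659). Its call in MRL/MpJ ended without MRL/MpJ replicate 1 (0.0644).

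Downstream of ornithine, Odc1, which makes putrescine, read 2208 and 2107 units in C57BL/6, 2531 and 2763 in AKR/N, and 2442 and 2444 in MRL/MpJ. It rose in AKR/N by 0.29 (limma adjusted p = 0.0173, and 0.113 or 0.171 when replicate 2 of C57BL/6 or of AKR/N was left out). Srm, spermidine synthase, rose in MRL/MpJ by 0.62 (limma adjusted p = 0.0125). It had 0.0637, 0.0674 and 0.081 with C57BL/6 replicate 1, MRL/MpJ replicate 1 and MRL/MpJ replicate 2 left out in turn. The arginine transporter Slc7a1 rose in MRL/MpJ by 0.39 (limma adjusted p = 0.0255, and 0.115, 0.0647 and 0.171 without C57BL/6 replicate 2, MRL/MpJ replicate 1 and MRL/MpJ replicate 2), but not when its probe sets were averaged (-0.04). Gatm, which uses arginine for creatine synthesis, was higher in MRL/MpJ than in AKR/N by 0.44 (limma adjusted p = 0.044) and lost that call in 11 of 16 alternatives, among them each with 1 array left out other than AKR/N replicate 1 (0.0584 to 0.306).

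Genes with the most similar profile were found by the root mean square distance between log2 profiles over the 6 arrays, each centred on its own mean. Lpo, Klb and Vnn1 were near each other, at 0.188 between Lpo and Klb, 0.209 between Vnn1 and Lpo and 0.321 between Vnn1 and Klb. The gap to C57BL/6 that chose these members is part of the profiles, so nothing is read from their closeness. The distances also rest on the added 16. With a pseudocount of 1 the differences from C57BL/6 in AKR/N and MRL/MpJ were 5.18 and 4.87 for Lpo, and 3.32 and 3.10 for Klb. Nearest to both Klb (0.0981) and Lpo (0.127) was Sdc4, a cell surface heparan sulfate proteoglycan, at 34.4 and 36.4 units in C57BL/6, 345 and 389.8 in AKR/N, and 288.6 and 360.1 in MRL/MpJ. Its rise over C57BL/6 was called in all 16 alternatives, but the size depended on them. It ran from 0.95 to 3.15 in MRL/MpJ and from 1.22 to 3.34 in AKR/N. Apoc2 had no close match, its nearest being Vnn1 at 0.504, Lpo at 0.542 and the cytochrome P450 Cyp2c55 at 0.55.

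Serpina3a and Arg2 had nearest genes of their own. Nmnat3, a mitochondrial enzyme of NAD synthesis, lay at 0.185 from Serpina3a and shared its order, at 73.4 and 68.9 units in C57BL/6, 349.8 and 391.5 in AKR/N, and 625 and 557 in MRL/MpJ. Averaged over its probe sets, however, Nmnat3 was lower in MRL/MpJ than in AKR/N (-1.38). Klb (0.258) and Speer4cos (0.275) came next. Closest to Arg2 were the long noncoding RNA Pvt1 (0.291), the glutamate receptor subunit Grin2b (0.294) and Cyp2c29 (0.32). All 3 shared its order of strains, with Pvt1 at 92.8 and 86.2 units in C57BL/6, 443.1 and 442.9 in AKR/N, and 207 and 228 in MRL/MpJ. For Grin2b the MRL/MpJ minus AKR/N difference was -0.18 and not called (limma adjusted p = 0.268). Averaged over its probe sets, Grin2b rose over C57BL/6 by 0.55 in MRL/MpJ and 0.57 in AKR/N (limma adjusted p = 0.0705 and 0.0668). The rise of Pvt1 in MRL/MpJ was then 0.37 (limma adjusted p = 0.128). These distances are a description over 6 arrays and were picked as the smallest of 14477 genes.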

How the data were processed

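Per the labels' protocols, Trizol was used for RNA and a one-cycle cDNA kit for biotin labelling. The authors deposited linear intensity values per probe set, scaled to a trimmed mean (2% off each end) of 125.001 on each array; the software is not given in the sources used here. The 64 control probe sets were left out, and 29692 probe sets with at least 2 of 6 arrays above the 40th percentile of their array were tested. Strain means of log2(intensity + 16) were fitted with limma 3.58.1 in R 4.3.3 (lmFit, eBayes with a variance trend; 3 residual and 7.58 prior degrees of freedom), with Benjamini-Hochberg adjustment over all tested probe sets and calls under 0.05. A gene is represented by its brightest tested probe set. Platform symbols matched RefSeq through gene IDs. The fit was also run on data simulated from its own model, which cannot show how it behaves where the arrays depart from that model.

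Members and lists were chosen with earlier results of these data known. Named genes are the members, 16 fixed partners, up to 3 called genes per list and comparison, 2 neighbours on each side and the 3 nearest profiles; Leydig, germ cell and other markers were used to describe the tissue. Alternatives were other normalizations, filters, pseudocounts and fits, arrays left out, and the mean of a gene's probe sets. Replicate numbers did not pair the samples (correlations of deviations 0.0425 to 0.0493).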

Additional observations from a re-analysis of the deposited data

How the results depend on the processing

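The rises of the 6 genes over C57BL/6 kept their direction in all 16 alternatives. Their median log2 difference, 2.91 in MRL/MpJ and 3.01 in AKR/N, was 3.51 and 3.63 with a pseudocount of 1 and 2.01 and 2.18 with 64. It ranged from 2.88 to 2.94 and from 2.93 to 3.08 with 1 array left out, and was 2.88 in AKR/N as the mean of all probe sets. Against AKR/N, the Apoc2 difference was -0.81 (adjusted p by limma 0.486) with a pseudocount of 1 and -0.77 (0.134) without the variance trend, both with 0 of 4 genes called. It ranged from -0.82 to -0.72 with 1 array left out, with 0 or 1 of the 4 called. The numbers of probe sets called, 2975 in MRL/MpJ and 2960 in AKR/N against C57BL/6 and 2052 between MRL/MpJ and AKR/N, were 1212, 1138 and 421 without the variance trend. With 1 array left out they ranged from 1483 to 2545, 1290 to 2607 and 694 to 2191; the last was 1327 without a filter. Centring arrays on their medians moved the lower share of calls from 49.4% to 39.4% in MRL/MpJ against C57BL/6. The pathway totals of 19, 13 and 8 were 11, 5 and 1 without the variance trend, and 9 to 17, 8 to 15 and 2 to 10 with 1 array left out; the last was 4 without a filter and 4 as means of probe sets. As means of probe sets, Lipg differed by 0.62 between AKR/N and C57BL/6 and by -0.072 between MRL/MpJ and AKR/N, Nmnat3 by -1.38 between MRL/MpJ and AKR/N, and Slc7a1 by -0.042 between MRL/MpJ and C57BL/6. Of 71 calls on genes named outside the members, 34 ended without the variance trend, 20 as means of probe sets and 31 without some 1 array. The cause of these changes was not tested. With the replicate number as a block, the counts of probe sets were 3510, 3492 and 2549, and Apoc2 kept its call at adjusted p = 0.0134 by limma; the samples share only a number.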
